A study of Mus musculus with 12 samples.

Results

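Solute carriers are the membrane proteins of the SLC and SLCO gene families, which move ions, nutrients, metabolites and drugs across cell membranes. The genes described here are those whose symbol begins with Slc followed by a family number, or with Slco, in tables of expression changes from AML12 cells, an established mouse hepatocyte line. They number 48 of the 2600 genes in the tables: 13 of 707 in the plasmid table and 38 of 2150 in the siRNA table, with 3 in both. The mouse annotation (GENCODE vM21) names 394 genes of this form, of which 383 are left after regulators, antisense transcripts and pseudogenes. The tables hold only genes that the authors selected by p-value, so a carrier that is not listed cannot be examined, and how many carriers the authors tested is not visible.

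AML12 is a line of immortalized hepatocytes from mice that carried a transgene for transforming growth factor alpha, and all 4 groups are this line. The plasmid contrast compares GFP-DUSP6 with GFP, 3 libraries of each by their labels, collected 24 h after transfection of plasmids encoding the phosphatase DUSP6 fused to green fluorescent protein, or that protein alone. The siRNA contrast set 3 siDUSP6 libraries, from cells given siRNA against Dusp6, against 3 negative-control (NC) siRNA libraries, collected 48 h after transfection. Transfection was with the same lipid reagent throughout, and cells grew with dexamethasone and insulin-transferrin-selenium. The labels do not say that replicates were separate cultures, and the spread that the p-values measure may therefore be technical.

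Carriers are classed into numbered families by sequence, and members of a family mostly share the kind of substrate they move. In hepatocytes, carriers of the sinusoidal membrane take up sugars, amino acids, organic anions and metals from blood, others exchange ions to hold volume and pH, and intracellular members serve mitochondria, lysosomes, peroxisomes and the Golgi. Zinc carriers of family SLC39 bring the metal into the cytosol and those of family SLC30 remove it. Substrate classes below follow the family number, so a class name is that of the family and not a measured activity.

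DUSP6 is the phosphatase that inactivates the MAP kinase ERK. Its own transcript had 1783 ± 46.0 normalized counts with siDUSP6 and 3935 ± 129 with NC, and 2354 ± 126 in the libraries labelled GFP-DUSP6 and 3352 ± 57.2 with GFP (SD, n = 3 each). It was thus lower in both. For the plasmid group that is not the direction of the label, but whether transcripts of the plasmid are counted under this gene was not tested. Directions below are those of the libraries so labelled. Counts over the listed genes were 1303866 to 1531091 per plasmid library and 3500977 to 4078892 per siRNA library. At an adjusted p under 0.05, 3.39% of all genes tested were higher and 1.22% lower in the plasmid contrast. The shares in the siRNA contrast were 7.76% and 7.19%. Of 12 hepatocyte markers, 1 was listed in the plasmid contrast (Apob, higher) and 5 in the siRNA contrast (Alb, Ttr, Apoa1, Hnf4a and Trf, all lower). The others cannot be checked. Of the markers of other liver cells, 0 of 5 stellate and 0 of 7 macrophage genes were listed in either table. Of 6 endothelial markers Stab1 was listed, higher in the plasmid contrast (log2 fold change 1.11 ± 0.13). Of 6 biliary markers, Krt19 (-0.39 ± 0.05) and Sox9 (-0.43 ± 0.08) were lower and Spp1 (0.57 ± 0.08) higher in the plasmid contrast, with summed normalized counts of 31284 to 31714 against 38697 to 41222, and Sox9 (0.78 ± 0.08) was higher and Spp1 (-0.53 ± 0.08) and Anxa13 (-0.58 ± 0.15) lower in the siRNA contrast. Their part in the carrier values was not tested. In bulk RNA, fewer cells of a kind and less RNA per cell cannot be told apart.

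Among carriers, lower expression prevailed after Dusp6 siRNA. A gene is called where its adjusted p (DESeq2) in the authors' deposited table is under 0.05. In the siRNA contrast 35 of the 38 listed carriers were called, 9 higher and 26 lower. Among all 2150 listed genes 1959 were called, as listing itself took a p under 0.05. Of the 13102 genes tested, 15.0% were called, 7.76% higher and 7.19% lower. The like share for carriers is not known, because the number of carriers tested is not visible. Of the called carriers 25.7% were higher, and of all 1959 called genes 51.9%. The median deposited log2 fold change was -0.35 over the called carriers and 0.23 over all called genes. A change of at least 1 on the log2 scale was found in 9 called carriers (25.7%), 1 higher and 8 lower, and in 278 of all called genes (14.2%), 195 higher and 83 lower.

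**Figure D1:**
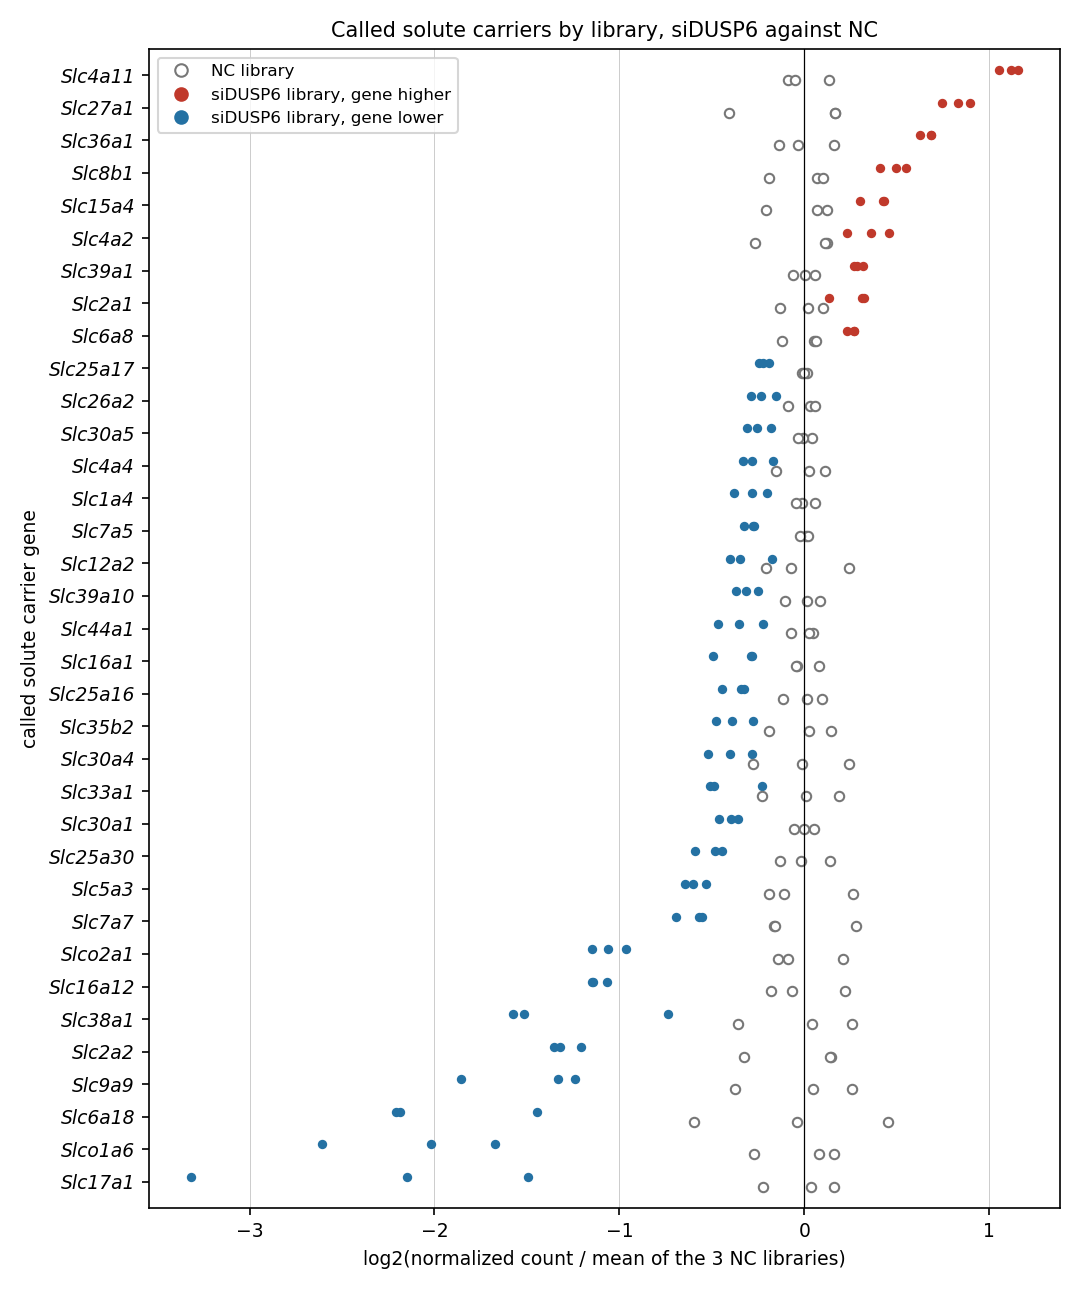
Each row is a called solute carrier of the siRNA contrast; the x axis is the log2 ratio of a library's normalized count to the mean of the 3 NC libraries (open circles, NC; filled circles, siDUSP6). All but 1 of the 35 genes, Slc12a2, have groups that do not overlap, and 6 of the genes at the bottom have fewer than 100 normalized counts on average.

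The groups did not overlap in 34 of the 35 called carriers, near the 98.8% of all called genes in which they did not. The exception was Slc12a2. Separate groups are thus usual among called genes. Where given for single carriers below, they describe the counts and add no support to a call. A refit of the counts in edgeR with the same scaling passed 7 carriers higher and 18 lower, where 6.50% and 5.75% of the genes tested passed. Of all 1959 called genes it passed 847 higher and 750 lower. The 10 called carriers that it did not pass were Slc30a4, Slc4a2, Slc25a17, Slc2a1, Slc30a5, Slc26a2, Slc4a4, Slc39a10, Slc33a1 and Slc12a2, with refit adjusted p from 0.0507 (Slc4a2) to 0.104 (Slc12a2). Without siDUSP6 replicate 2 it passed 3 and 8, and without siDUSP6 replicate 3 it passed 3 and 9; the other refits without a library passed 6 to 9 and 13 to 17. With scaling over the listed genes the split was 5 higher and 24 lower (TMM) or 4 and 26 (median of ratios); of all genes that passed, 40.4% and 33.9% were then higher, against 53.0% with the reported scaling. In the same libraries all 20 genes of an interferon list were higher, with summed normalized counts of 19501 to 29058 against 1968 to 2378 in NC, and the 5 listed hepatocyte markers summed to 3302 to 3598 against 4559 to 5747. The part of either in the carrier values was not tested.

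Organic anion and carboxylate carriers had the most pronounced falls among abundant members. Slc16a12, a monocarboxylate-family carrier that moves creatine, had 1582, 1573 and 1669 normalized counts in the siDUSP6 libraries and 3337, 3080.0 and 4062 in NC. The groups lay far apart, and the log2 fold change was -1.12 ± 0.10 (SE; adjusted p = 1.61e-24 in the authors' deposited table). Slco2a1, the prostaglandin transporter, had 3349.7, 3561 and 3799 against 6717, 6969.6 and 8573. It fell by 1.06 ± 0.09 on the log2 scale (SE; adjusted p = 7.24e-24 in the authors' deposited table), with NC replicate 3 the highest library for both genes. Slc16a1, which carries lactate and pyruvate, fell less, from 1307 ± 64.3 to 1023 ± 83.7 (SD, n = 3), a log2 fold change of -0.35 ± 0.08.

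The scarcer called organic anion carriers fell by more, at a level where only large changes could be called. Slco1a6, a member of the organic anion transporting polypeptides, had 20.7, 39.4 and 31.1 normalized counts with siDUSP6 and 140.4, 104 and 133 with NC, a log2 fold change of -2.04 ± 0.25 (SE). Slc17a1, which moves phosphate, urate and other organic anions in kidney and liver, had 10.8, 4.81 and 17.0 against 49.1, 53.6 and 41.1, a log2 fold change of -2.13 ± 0.37. For each, every siDUSP6 library lay below every NC library, and all 3 called members of the organic ion class were lower. Slco1a5, a close relative of Slco1a6 at its side on chromosome 6, was listed without an adjusted p, at 2 raw counts over the siDUSP6 libraries and 16 over NC (ratio 8, 95% exact binomial interval 1.88 to 71.7, counting error only). Of the 50-base words of the annotated transcripts, 6.6% in Slco1a6 and 3.6% in Slco1a5 also occur in other genes, so reads of these relatives can be misassigned.

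Among called carriers Slc4a11 had the smallest p and the largest rise. It belongs to the bicarbonate transporter family by sequence, and its human counterpart, needed in the corneal endothelium, conducts protons and ammonia. It had 11237, 12098 and 11753 normalized counts with siDUSP6 and 5104, 5939 and 5232 with NC. The lowest siDUSP6 library was well above the highest NC library, and the log2 fold change was 1.11 ± 0.07 (SE; adjusted p = 2.03e-43 in the authors' deposited table). It ranged from 1.07 to 1.18 when single libraries were left out.

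Other ion carriers split by direction, with 3 called higher and 4 lower in the class, Slc4a11 included. Slc8b1, the sodium-calcium exchanger of mitochondria, had 528, 563 and 583 against 349, 419 and 428 (log2 fold change 0.49 ± 0.11). Slc4a2, a chloride-bicarbonate exchanger, had 2264, 2649.5 and 2481 against 1604, 2101 and 2085 (0.35 ± 0.11). In both the groups were separate, and in Slc4a2 NC replicate 1 was the low library. For Slc4a2, 13.7% of the exon bases overlap other genes on the opposite strand, mainly Fastk, and the use of strand in counting is not stated. Slc9a9, a sodium-proton exchanger of endosomes, was scarce and lower, at 21.6, 23.1 and 15.0 against 56.2, 65.2 and 42.0 (log2 fold change -1.44 ± 0.29). The sulfate carrier Slc26a2 (-0.23 ± 0.07) and the sodium-bicarbonate cotransporter Slc4a4 (-0.26 ± 0.08) were slightly lower in the authors' calls. The refit that gives these values did not pass Slc4a2 (adjusted p = 0.0507), Slc26a2 (0.0624) or Slc4a4 (0.0714). Slc12a1, the kidney form of the sodium-potassium-chloride cotransporter, was listed without an adjusted p, at 3 raw counts with siDUSP6 and 27 with NC (ratio 9, 95% exact binomial interval 2.77 to 46.4, counting error only).

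Of 8 amino acid and peptide carriers called, 3 were higher and 5 lower. Slc36a1, which exports amino acids from lysosomes with protons, had 1533, 1599.9 and 1600.3 normalized counts with siDUSP6 and 904, 1110.4 and 973 with NC. All siDUSP6 libraries exceeded all NC libraries (log2 fold change 0.66 ± 0.09; adjusted p = 4.48e-10 in the authors' deposited table). Slc15a4, a lysosomal histidine and peptide carrier that immune cells need for signalling by endosomal Toll-like receptors, had 655, 715 and 716 against 461, 578 and 557 (0.39 ± 0.10). Its call was lost in the refit with scaling over the listed genes (adjusted p = 0.0547 with TMM and 0.117 with median of ratios). The refit also lost it without NC replicate 1 (0.0600) or siDUSP6 replicate 2 (0.147) or 3 (0.120). Of its exon bases, 8% overlap an opposite-strand transcript. The creatine transporter Slc6a8 rose by 0.26 ± 0.07, where the creatine-carrying Slc16a12 fell.

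The amino acid carriers that fell act at the plasma membrane. Slc7a5, the light subunit of the large neutral amino acid exchanger, had 5965, 5958 and 5739.7 against 7242, 7299.8 and 7087, a small and even shift (log2 fold change -0.29 ± 0.06). Slc7a7, the light subunit for cationic amino acids, had 209, 211 and 191 against 276, 277 and 375 (-0.60 ± 0.15), with NC replicate 3 above the rest. Slc6a18, a neutral amino acid carrier known from the kidney, had 18.7, 31.7 and 19.0 against 57.2, 84.1 and 118 (-1.89 ± 0.33). Slc38a1, a sodium-coupled carrier of glutamine, was also scarce, at 19.7 ± 6.84 against 45.9 ± 9.56 (SD, n = 3; -1.22 ± 0.31). The shared heavy subunit of the first pair is Slc3a2, which was not listed. Counts of Slc6a18 and Slc38a1 are low, and their fold changes carry the widest errors of the called amino acid carriers.

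Of 3 called sugar carriers, 1 was higher and 2 lower in the authors' calls. The widely expressed glucose transporter gene Slc2a1 had 3643, 4150.3 and 4122 with siDUSP6 and 3027, 3363 and 3564 with NC (log2 fold change 0.26 ± 0.08), and the refit did not pass it (adjusted p = 0.0584). Slc2a2, the glucose transporter of mature hepatocytes, had 17.7, 16.4 and 16.03 against 45.1, 32.6 and 45.0 (-1.29 ± 0.28). Slc5a3, which takes up myo-inositol with sodium, had 305, 319 and 296 against 555, 428 and 405 (-0.59 ± 0.13). The groups were separate in each of the 3 genes, and NC replicate 1 was the high library for Slc5a3. Per kilobase of exon, the NC level was 946 normalized counts for Slc2a1 and 7.11 for Slc2a2, so the hepatocyte form was by far the scarcer in these libraries.

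Of 5 metal carriers called by the authors, 1 was higher and 4 lower, and all 5 belong to the zinc families. The refit passed only Slc39a1 and Slc30a1, with adjusted p = 0.0535 for Slc30a4, 0.0551 for Slc30a5 and 0.0537 for Slc39a10. Slc30a1, the zinc exporter of the plasma membrane, had 292, 285 and 273 normalized counts with siDUSP6 and 389, 361 and 374 with NC (log2 fold change -0.40 ± 0.10). Slc30a4, which loads zinc into vesicles, had 1372, 1265 and 1165 against 1978, 1656 and 1378 (-0.40 ± 0.12), its groups came within a few counts of each other, and the fold change was -0.26 without NC replicate 1. Slc30a5, which supplies zinc to the secretory pathway, had 945, 979 and 1030.1 against 1203, 1163 and 1142 (-0.25 ± 0.08). Of the importers, Slc39a10 was lower (-0.31 ± 0.09) and Slc39a1 higher, at 1662, 1644 and 1698 against 1305, 1419 and 1366 (0.29 ± 0.07). Slc39a1 shares 21.8% of its 50-base words with its pseudogene Slc39a1-ps, and its refit call was lost under median-of-ratios scaling on listed genes (0.19; adjusted p = 0.143).

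The windows around the start sites of the 3 zinc exporters are shown because these genes were lower together in the authors' calls, 2 of them short of the threshold in the refit, and because Slc30a1 is a known target of the metal-responsive transcription factor. Each runs from 250 bases before to 50 bases after a RefSeq start site (GRCm38.p6), 5′ to 3′ on the gene's strand, and capitals mark the core of the metal response element, searched as TGCNCNC on both strands, a looser form than the element itself. They lie at chr1:191906531-191906830 (plus strand) for Slc30a1, chr2:122702614-122702913 (minus strand) for Slc30a4 and chr13:100833378-100833677 (minus strand) for Slc30a5.
Slc30a1: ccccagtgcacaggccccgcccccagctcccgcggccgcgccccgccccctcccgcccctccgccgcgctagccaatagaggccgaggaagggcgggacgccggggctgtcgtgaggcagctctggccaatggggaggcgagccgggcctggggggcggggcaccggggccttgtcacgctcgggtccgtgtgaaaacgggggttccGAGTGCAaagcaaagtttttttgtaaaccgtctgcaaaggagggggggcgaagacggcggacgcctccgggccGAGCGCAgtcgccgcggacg
Slc30a4: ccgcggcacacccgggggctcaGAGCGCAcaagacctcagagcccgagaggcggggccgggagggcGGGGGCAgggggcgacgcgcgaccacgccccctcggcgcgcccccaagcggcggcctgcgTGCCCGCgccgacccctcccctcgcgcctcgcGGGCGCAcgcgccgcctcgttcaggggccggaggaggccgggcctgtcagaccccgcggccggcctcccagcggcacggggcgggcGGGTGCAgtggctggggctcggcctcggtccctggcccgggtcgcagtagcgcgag
Slc30a5: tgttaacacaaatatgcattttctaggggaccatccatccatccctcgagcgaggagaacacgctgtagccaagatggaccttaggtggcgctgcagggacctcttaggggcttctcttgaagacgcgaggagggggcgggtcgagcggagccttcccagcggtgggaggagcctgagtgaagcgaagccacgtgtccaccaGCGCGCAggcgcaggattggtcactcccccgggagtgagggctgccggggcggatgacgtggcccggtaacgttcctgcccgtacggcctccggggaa
The core was found 2, 5 and 1 times. It occurs in 51.3% of all 32544 promoter windows and in 54.2% of the 48 windows of 35 carriers with an entry.

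Windows of the abundant carrier with the lowest adjusted p among the falls and of the riser with the lowest adjusted p that has an entry are shown in the same way, with the E-box CACGTG in capitals, a palindrome bound by basic helix-loop-helix factors that include regulators of lysosomal genes. The Slc16a12 window is chr19:34747279-34747578 (minus strand) and the Slc36a1 window chr11:55204090-55204389 (plus strand).
Slc16a12: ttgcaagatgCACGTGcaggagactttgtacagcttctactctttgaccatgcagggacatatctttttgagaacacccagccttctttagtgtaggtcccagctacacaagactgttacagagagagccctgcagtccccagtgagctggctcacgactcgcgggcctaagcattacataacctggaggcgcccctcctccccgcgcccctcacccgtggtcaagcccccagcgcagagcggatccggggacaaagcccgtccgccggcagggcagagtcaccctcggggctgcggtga
Slc36a1: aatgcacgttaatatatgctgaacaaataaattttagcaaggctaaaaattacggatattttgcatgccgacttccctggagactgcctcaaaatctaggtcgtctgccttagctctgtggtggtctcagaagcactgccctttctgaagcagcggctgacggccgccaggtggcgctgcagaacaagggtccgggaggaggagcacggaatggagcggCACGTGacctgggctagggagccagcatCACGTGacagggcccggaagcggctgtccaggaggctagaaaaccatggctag
The E-box was found 1 time in the first and 2 times in the second. It occurs in 7.17% of all windows and in 14.6% of the carrier windows, those of Slc16a1, Slc16a12, Slc24a4, Slc27a1, Slc30a5, Slc33a1 and Slc36a1, which include genes of either direction. Of other motifs searched on both strands, the AP-1 site TGANTCA was in 4.17% of carrier windows (7.79% of all) and the ETS site CCGGAAG in 6.25% (8.91%). Carriers without an entry were Slc11a2, Slc12a2, Slc14a1, Slc26a2, Slc38a1, Slc39a14, Slc39a4, Slc4a11, Slc6a18, Slc6a8, Slc7a5, Slc8b1 and Slco3a1.

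The 3 called members of the mitochondrial carrier family and the nucleotide sugar family member Slc35b2 were lower. Organelle carriers of other families went both ways in the authors' calls: Slc8b1, Slc36a1 and Slc15a4 were higher, and Slc9a9, Slc30a4, Slc30a5 and Slc33a1 lower. Slc25a30, a mitochondrial carrier first described in kidney, had 1683, 1727 and 1559 normalized counts with siDUSP6 and 2586, 2146 and 2327 with NC (log2 fold change -0.51 ± 0.08). The mitochondrial carrier gene Slc25a16 (-0.37 ± 0.10) and Slc25a17, whose product sits in peroxisomes and moves coenzyme A and related cofactors (-0.22 ± 0.07), were lower by less. Slc35b2, which brings the sulfate donor PAPS into the Golgi, had 548, 582 and 628 against 668, 777 and 843 (-0.38 ± 0.10). The refit lost Slc35b2 when any single library other than NC replicate 1 was left out (adjusted p = 0.0610 to 0.139). All of these carriers had groups that did not overlap, as had 98.8% of all called genes. The refit of all libraries did not pass Slc25a17 (adjusted p = 0.0553), nor Slc30a4, Slc30a5 and Slc33a1.

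Lipid and cofactor carriers included the second largest rise among called carriers. Slc27a1, a long-chain fatty acid transport protein, had 736, 693 and 769.6 normalized counts with siDUSP6 and 312, 465 and 464 with NC, where NC replicate 1 was the low library (log2 fold change 0.82 ± 0.14, 0.66 to 0.92 without single libraries). The choline transporter Slc44a1 was lower (-0.34 ± 0.09), as was Slc33a1, which takes acetyl-CoA into the endoplasmic reticulum (-0.40 ± 0.13). For Slc33a1, 32% of the exon bases overlap the opposite-strand gene Gm26850, so its reads may come from either, and the refit did not pass it (adjusted p = 0.0704). Slc23a4 was listed without an adjusted p, at 2.95, 10.6 and 12.02 normalized counts against 0, 2.10 and 1.96.

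**Figure D2:**
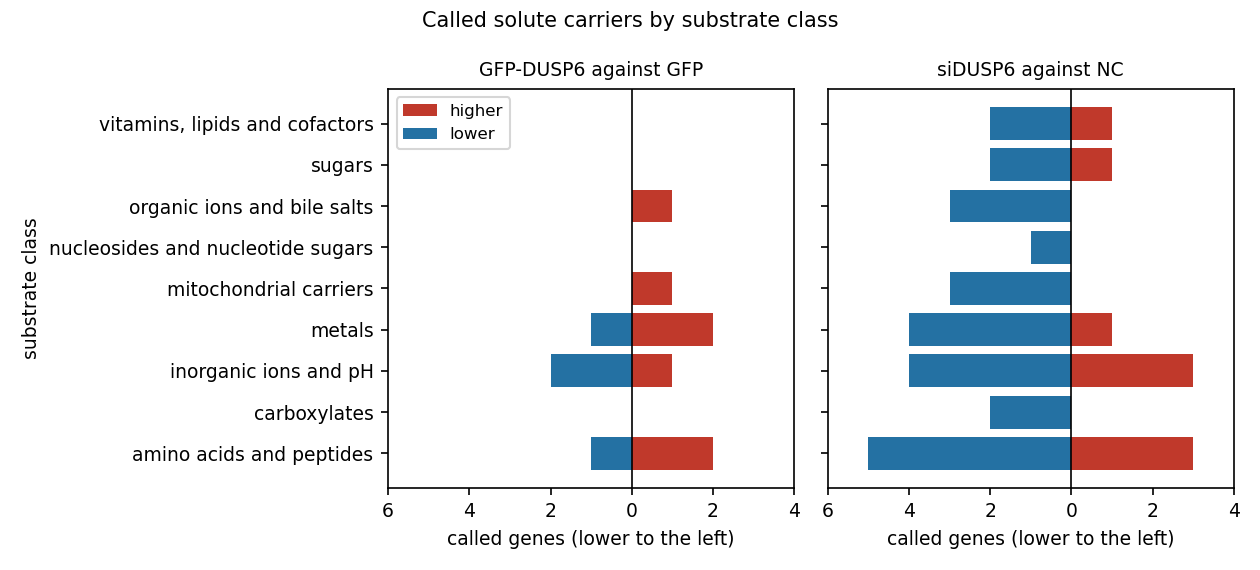
Bars count called solute carriers by substrate class of the family, higher to the right and lower to the left, in the plasmid contrast (left panel) and the siRNA contrast (right panel). In the siRNA contrast the authors' lower calls outnumber higher calls in every class shown, from 4 against 3 among ion carriers to 3 against 0 among mitochondrial and organic ion carriers. This does not hold in the edgeR refit for 3 classes. There only Slc4a11 and Slc8b1 (higher) and Slc9a9 (lower) passed among ion carriers. Among metal carriers only Slc39a1 (higher) and Slc30a1 (lower) passed, and among lipid and cofactor carriers only Slc27a1 (higher) and Slc44a1 (lower). In the plasmid contrast the higher calls of Slco3a1 (organic ions) and Slc12a2 (inorganic ions) flip with scaling over the listed genes.

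Genes that assist or control carriers were examined as lists, beside which 7.76% of all tested genes were called higher and 7.19% lower in the siRNA contrast. Of 25 partners and chaperones, 5 were lower and 0 higher after the siRNA: Sgk1, a kinase that raises carrier activity (log2 fold change -0.46 ± 0.07), the cotransporter kinase Wnk4 (-0.74 ± 0.15), the arrestin-like genes Txnip (-0.72 ± 0.14) and Arrdc3 (-0.51 ± 0.15), and Mcur1 (-0.64 ± 0.14). Of 20 transcriptional regulators of hepatocyte transporters 5 were lower and 0 higher, among them the bile acid receptor Nr1h4 (-0.62 ± 0.10), Ppara (-0.97 ± 0.15), Hnf4a (-0.31 ± 0.09) and Foxa2 (-0.40 ± 0.08). Of 40 other membrane transport genes, 39 of which matched the annotation, 4 were higher, near the share over all genes, and 8 lower. The water channel Aqp1 (-2.55 ± 0.28) and the ion pump beta subunits Atp1b1 (-0.99 ± 0.11) and Atp1b3 (-0.33 ± 0.09) were lower, and the copper pumps Atp7a (0.49 ± 0.10) and Atp7b (0.39 ± 0.08) higher. Of 20 genes of the amino acid response through ATF4, which raises several amino acid carriers, 2 were lower, near the share over all genes, and 0 higher; 19 of the 20 matched. In the plasmid contrast these lists had 0, 0, 1 (Tfrc, higher) and 2 (Trib3 and Asns, lower) called genes. Of all genes tested in that contrast 3.39% were called higher and 1.22% lower.

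In the libraries labelled GFP-DUSP6 fewer carriers were called than after the siRNA, as were fewer genes of all kinds (580 against 1959). The median absolute log2 fold change of called carriers was 0.40 in each contrast. Of the 13 listed, 11 were called, 7 higher and 4 lower. Among all 707 listed genes 580 were called. Of the 12592 genes tested, 4.61% were called, 3.39% higher and 1.22% lower, and the number of carriers tested is not visible. Of the called carriers 63.6% were higher, and of all 580 called genes 73.6%. The median deposited log2 fold change was 0.25 over the called carriers and 0.35 over all called genes. The groups did not overlap in any of the 11, where they did not in 99.7% of all called genes.

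**Figure D3:**
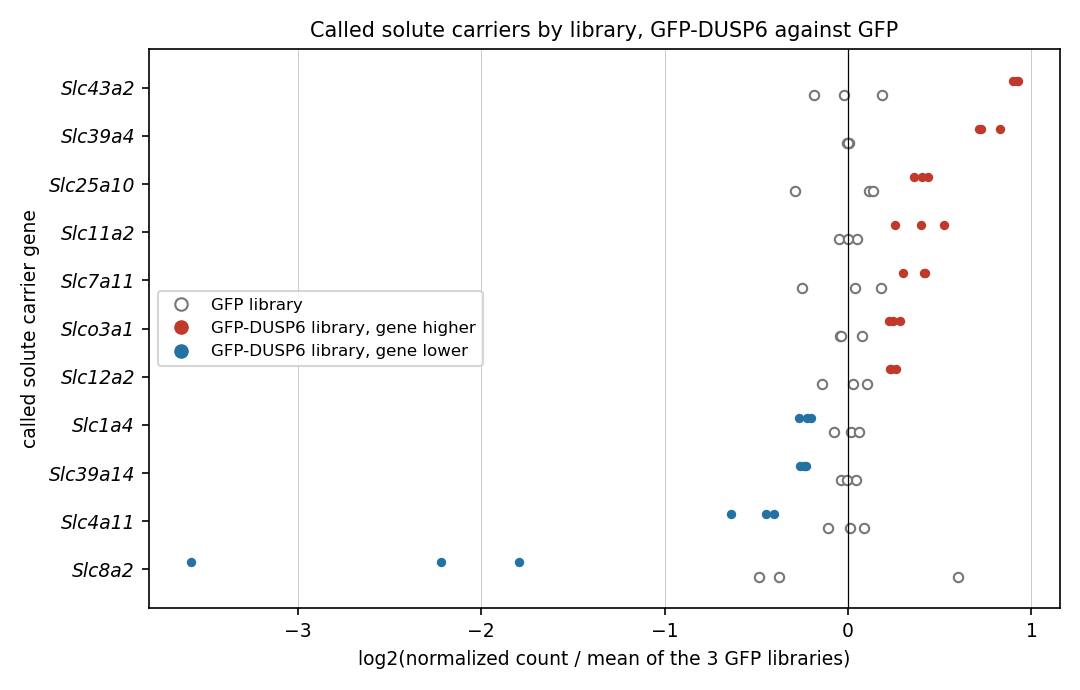
Each row is a called solute carrier of the plasmid contrast; the x axis is the log2 ratio of a library's normalized count to the mean of the 3 GFP libraries (open circles, GFP; filled circles, GFP-DUSP6). Slc43a2 and Slc39a4 stand furthest to the right; the direction of Slco3a1 and Slc12a2 flips with scaling over the listed genes.

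The edgeR refit passed the same numbers, 7 higher and 4 lower, where 3.18% and 1.02% of the genes tested passed. Of all 580 called genes it passed 396 higher and 129 lower. Without GFP-DUSP6 replicate 1, 2 and 3 it passed 3, 3 and 2 higher, and 1 lower without replicate 3. With scaling over the listed genes, whose median shift of the log2 fold changes was -0.30 (TMM) or -0.32 (median of ratios), 2 were higher and 4 lower; of all genes that passed, 26.8% and 22.0% were then higher, against 75.6% with the reported scaling. The refit lost Slc7a11, Slc25a10, Slc12a2, Slco3a1 and Slc1a4 whichever of the GFP-DUSP6 libraries was left out. In these libraries 7 of the 20 interferon genes were higher, with summed counts of 1727 to 1843 against 931 to 1104, and their part in the carrier values was not tested.

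The largest rises were in an amino acid carrier and a zinc carrier. Slc43a2, which exports neutral amino acids down their gradient, had 256, 251 and 254 normalized counts with GFP-DUSP6 and 132, 118 and 152 with GFP. With scaling over the listed genes its log2 fold change was 0.62 (TMM) or 0.59 (median of ratios). Its GFP-DUSP6 libraries were almost identical (log2 fold change 0.91 ± 0.14; adjusted p = 1.05e-05 in the authors' deposited table), and 9.2% of its exon bases overlap an opposite-strand transcript. Slc39a4, the zinc importer best known from the intestine, had 866, 858 and 929 against 522, 526 and 524. It rose by 0.75 ± 0.08 on the log2 scale (adjusted p = 2.03e-12 in the authors' deposited table), 0.72 to 0.78 without single libraries, and by 0.46 (TMM) or 0.43 (median of ratios) with scaling over the listed genes.

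Other metal carriers moved apart. Slc11a2, the proton-coupled importer of ferrous iron, had 1170.0, 1288 and 1404 normalized counts with GFP-DUSP6 and 945, 1011 and 979 with GFP (log2 fold change 0.40 ± 0.08). With scaling over the listed genes its fold change was 0.097 (TMM) or 0.071 (median of ratios) and the call was lost (adjusted p = 1 in the edgeR refit), as it was without GFP-DUSP6 replicate 3 (adjusted p = 0.0869). The transferrin receptor gene Tfrc, which works upstream of it in iron uptake, was higher as well (0.65 ± 0.09). Slc39a14, a hepatocyte importer of zinc, manganese and iron, was lower, at 3782, 3747 and 3696 against 4557, 4306 and 4410.1 (-0.24 ± 0.05, and -0.54 or -0.57 with the other scalings). None of the 3 metal carriers of this contrast was listed in the siRNA contrast, and none of the 5 zinc carriers of the siRNA contrast was listed here.

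Carriers of cystine, dicarboxylates and organic anions were higher in the authors' calls, which were lost in the refit with scaling over the listed genes. Slc7a11, which imports cystine in exchange for glutamate, had 1937, 1781 and 1935 normalized counts with GFP-DUSP6 and 1645, 1218 and 1485 with GFP (log2 fold change 0.38 ± 0.09). Slc25a10, the dicarboxylate carrier of mitochondria, had 1074, 1131 and 1106 against 686, 907 and 919 (0.40 ± 0.10). With that scaling the values were 0.080 (TMM) and 0.053 (median of ratios) for Slc7a11, and 0.10 and 0.073 for Slc25a10 (adjusted p = 1 in each edgeR refit). GFP replicate 2 was the low control library for the first and GFP replicate 1 for the second. Slco3a1, a widely expressed organic anion carrier, had 1643, 1686 and 1619 against 1346, 1462 and 1349 (0.25 ± 0.06), a direction that flips with scaling over the listed genes (-0.046 with TMM and -0.072 with median of ratios).

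Of the rare carriers listed in the plasmid contrast 1 was called. Slc8a2, a sodium-calcium exchanger mostly of neurons, had 4.97, 6.68 and 1.93 normalized counts with GFP-DUSP6 and 16.6, 35.1 and 17.8 with GFP (log2 fold change -2.31 ± 0.51, -2.70 to -1.89 without single libraries). The urea transporter Slc14a1 and the sodium-potassium-calcium exchanger Slc24a4 were listed without an adjusted p. They had 0 raw counts in all 3 GFP-DUSP6 libraries, against 2, 3 and 5 for Slc14a1 and 10, 6 and 1 for Slc24a4 with GFP. With the 3 GFP-DUSP6 libraries together set to a floor of 3 counts, the GFP sums of 10 and 17 were 3.33 and 5.67 times that floor. These ratios leave out the counting error of the GFP sums and the spread between libraries, so they are not lower bounds.

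Both contrasts called 3 carriers, which is 27.3% of those called in the plasmid contrast and 8.57% of those in the siRNA contrast; over all genes the 250 shared calls were 43.1% and 12.8%. The contrasts share no library and differ in time and kind of nucleic acid. Slc4a11 was lower with GFP-DUSP6, at 3179.8, 3742 and 3632 normalized counts against 4597, 4986 and 5267 with GFP (log2 fold change -0.49 ± 0.07; adjusted p = 4.53e-09 in the authors' deposited table), or -0.79 (TMM) and -0.82 (median of ratios) with scaling over the listed genes. That is opposite to its rise of 1.11 ± 0.07 after the siRNA, and in each contrast the groups were separate.

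Slc12a2, the widely expressed sodium-potassium-chloride cotransporter that serves cell volume, had 5031, 4930.5 and 4921 normalized counts with GFP-DUSP6 and 4274, 3798 and 4513 with GFP. It was higher by 0.24 ± 0.06 on the log2 scale, which turned to -0.057 (TMM) and -0.083 (median of ratios) with scaling over the listed genes. In the siRNA contrast it had 3781, 3360.5 and 3229.6 against 5056, 4060.0 and 3708, where siDUSP6 replicate 1 lay above NC replicate 3 (log2 fold change -0.31 ± 0.11; adjusted p = 0.0463 in the authors' deposited table). Neither the edgeR refit (adjusted p = 0.104) nor DESeq2 on the listed genes (0.0522) passed it there, the fold change was -0.17 without NC replicate 1, and the fit with the replicate number as a block did (adjusted p = 0.000927). Slc1a4, a carrier of alanine, serine and cysteine, was lower in both contrasts. It had 3288, 3438 and 3388 against 3751, 3993 and 4115 with GFP, and 3181, 3009 and 2808 against 3806, 3622 and 3541 with NC, log2 fold changes of -0.23 ± 0.05 and -0.29 ± 0.07. The first was -0.53 (TMM) or -0.55 (median of ratios) with scaling over the listed genes, and the refit lost the second without NC replicate 2 or siDUSP6 replicate 2 or 3.

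**Figure D4:**
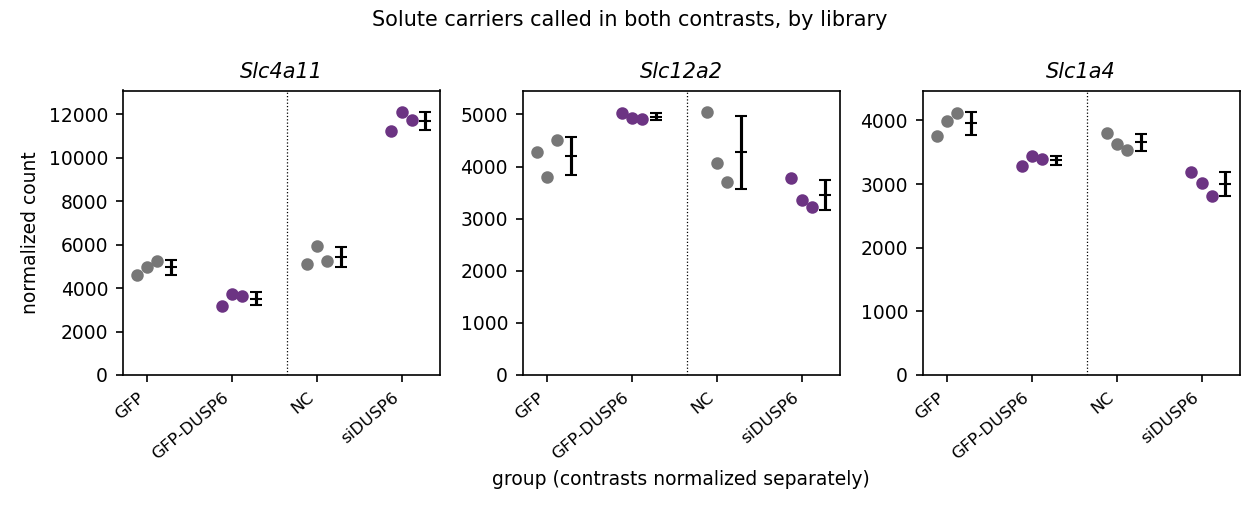
Normalized counts of the 3 solute carriers called in both contrasts, by group (points, libraries; bars, mean ± SD, n = 3). Slc4a11 is lower with GFP-DUSP6 and higher with siDUSP6, Slc1a4 is lower in both, and Slc12a2 is higher with GFP-DUSP6 under the scaling of the whole libraries but not with scaling over the listed genes.

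Levels were compared between carriers per kilobase of annotated exon. In the NC libraries Slc7a5 was the most abundant listed carrier, at 1944 normalized counts per kilobase, followed by Slc4a11 at 1085, Slc2a1 at 946 and Slc1a4 at 931; the lowest called member was Slc38a1 at 2.66. In the GFP libraries Slc1a4 led at 1007 per kilobase, with Slc4a11 next at 990.3 and Slc39a14 at 419, and Slc8a2 was the lowest called member at 4.40. With siDUSP6, Slc4a11 reached 2340.1 per kilobase and exceeded Slc7a5 at 1588. Neighbours such as Slc2a1 and Slc1a4 in NC, or Slc1a4 and Slc4a11 in GFP, differed by less than their spread.

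**Figure D5:**
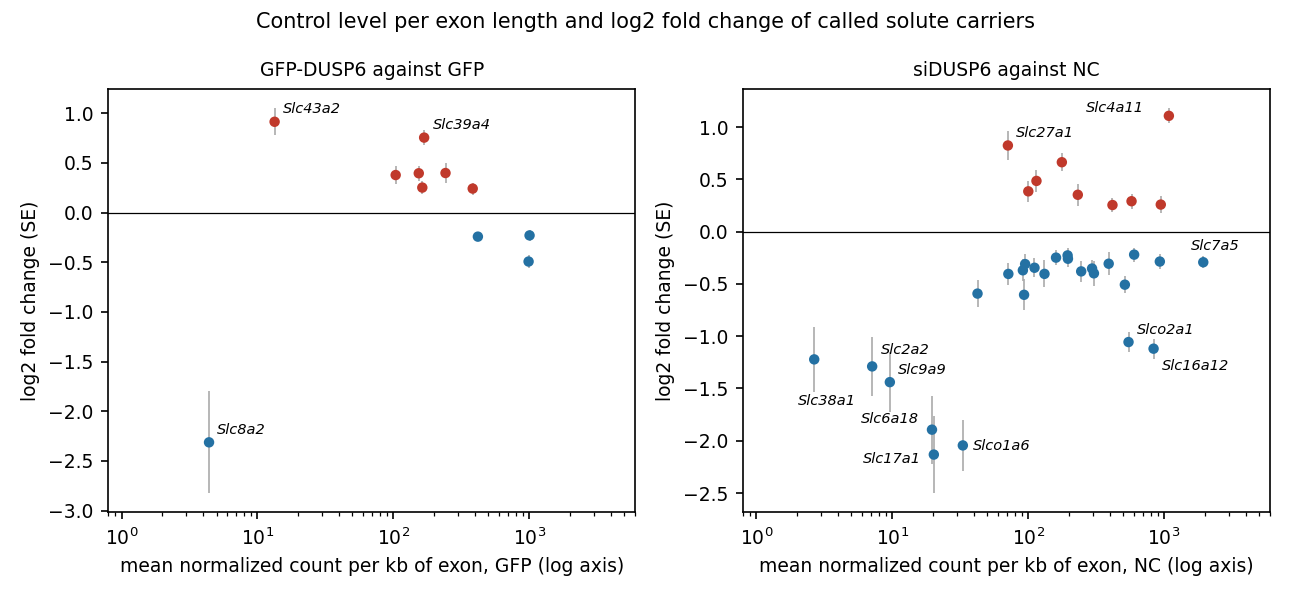
Mean normalized count per kilobase of exon in the control group (x, log axis) against log2 fold change (y; bars, SE) of called solute carriers in each contrast. The called members under 100 normalized counts on average were 6 in the siRNA contrast and 1 in the plasmid contrast, and all were lower; the plotted rises of Slco3a1 and Slc12a2 in the plasmid contrast, at 0.25 and 0.24, flip with scaling over the listed genes.

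Size of change and level were linked by how genes were called. In the siRNA contrast the called carriers with a mean under 100 normalized counts were 6 in number, all lower, and the smallest absolute deposited log2 fold change among them was 1.22. Of the 179 called genes of that level the smallest was 0.62, against 0.16 for the 931 called genes that averaged over 1000. No called carrier was both scarce and slightly changed. Among members above that level, absolute log2 fold changes reached 1 in Slc4a11, Slc16a12 and Slco2a1.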

How the data were processed

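RNA of AML12 cells was sequenced in 12 libraries, 3 per group. The authors deposited whole-number counts per gene and library, together with log2 fold change, p-value and its adjusted form, and for the siRNA contrast also a mean normalized signal and a linear fold (ratio). Per the submitters' processing notes fold changes come from DESeq2 and the build is mm10; versions, aligner, counter and annotation are not stated there or in the labels. The deposited tables hold 707 and 2150 genes: those with an adjusted p under 0.05, and 127 and 191 without an adjusted p whose p is under 0.05. Adjusted p, rank and p imply 12592 and 13102 tested genes.

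Calls are those of the deposited tables. Size factors were recovered from the deposited mean normalized signal (siRNA) or from deposited fold changes of 489 genes with over 200 counts in each library (plasmid, largest log2 error 0.000652); they lay between 0.94 and 1.05. Normalized counts are counts divided by them. Log2 fold changes ± SE come from a quasi-likelihood refit of all listed genes (edgeR 4.0.16, R 4.3.3, filterByExpr minimum count 10), adjusted over the implied number of tested genes and tested on simulated data. Its dispersion rests on listed genes. Counts of all replicate pairs differed beyond sampling noise (chi-square divided by its degrees of freedom, 3.89 to 25.7). In the siRNA contrast same-numbered libraries deviated together (r across 1759 genes 0.466, 0.148 and 0.259). Differently numbered ones reached 0.234 (siDUSP6 replicate 3 with NC replicate 2) and 0.133 (siDUSP6 replicate 2 with NC replicate 3). Only replicate 1 stood apart, so the pairing of replicates 2 and 3 is not established. The replicate block is an alternative fit, and the reported SE come from the fit without it. In the plasmid contrast same-numbered libraries did not all deviate together (0.414, 0.356 and -0.01).

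Members, lists and tests were chosen with earlier results of these data known. Named with values were, per contrast, the 6 largest rises and falls among called carriers (mean of at least 50), the lowest adjusted p per substrate class, carriers called in both and those with a library at 0; further called members were named to account for all. Exon lengths, positions and overlaps are from GENCODE vM21 (GRCm38), and start-site windows from RefSeq (GRCm38.p6), matched by symbol for 35 of 48 carriers. Alternatives were DESeq2 1.42.0, scaling over listed genes, no filter, adjustment over listed genes, the replicate block and leaving out libraries.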

Additional observations from a re-analysis of the deposited data

How the results depend on the processing

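Counts of called carriers kept within 1.5 times of the reported ones with the edgeR refit in place of the deposited call and without regulators or pseudogenes, except that 1 carrier in place of 2 was called in both contrasts with opposite directions. At an adjusted p under 0.01, 5 were higher and 12 lower in the siRNA contrast, against 9 and 26. In the refit of the plasmid contrast 2 carriers in place of 7 were higher after TMM scaling on the listed genes, and 2 after median-of-ratios scaling, and the log2 fold changes of Slco3a1 (-0.046 and -0.072) and Slc12a2 (-0.057 and -0.083) reversed; by construction this scaling centres on selected genes. In the siRNA contrast 4 in place of 7 were higher with median of ratios. Leaving out single libraries gave 2 to 6 higher and 1 to 4 lower (plasmid), and 3 to 9 higher and 8 to 17 lower (siRNA); such refits have fewer samples. DESeq2, no filter and adjustment over listed genes alone moved no count by over 1.5 times. With the replicate block 7 were higher and 4 lower (plasmid), and 9 higher and 26 lower in place of 7 and 18 (siRNA). The block fit thus kept all 35 deposited calls of the siRNA contrast, though the pairing of replicates 2 and 3 is not established. Carriers under about 100 normalized counts could be listed only for large changes.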
